A study of Mus musculus with 6 samples.

Results

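The 10 genes described here, Ttr, Enpp2, Kl, Folr1, Aqp1, Slc4a5, Clic6, Cldn2, Otx2 and Prlr, are known for high expression in the choroid plexus and were followed library by library in RNA-seq of the mouse hippocampus. They were matched by symbol, and all 10 were found among the 54752 genes of the count tables. The RNA came from the whole right hippocampus of wild-type male C57BL/6 J mice, labelled 14 weeks and sampled 3 weeks after surgery, with 1 library per mouse. The sample labels give the strain without the J. The 3 BCAS mice (bilateral carotid artery stenosis, a model of chronic cerebral hypoperfusion) carried coils of unequal bore around both common carotid arteries, with the narrower coil on the right, the side sampled, and the left coil placed an hour later. The 3 Sham mice had the same operation without coils, and the BCAS mice are survivors of the surgery. Library totals ran from 34301711 to 35607098 counts in Sham and from 29652456 to 31892083 counts in BCAS, and the edgeR test covered 18617 genes, all 10 members included. Levels are given as CPM, which are counts scaled to the library total after TMM adjustment.

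The choroid plexus is a fold of vascular tissue inside the brain ventricles, covered by a single type of epithelium that secretes cerebrospinal fluid. The epithelium loads the fluid with transthyretin and other carriers, moves water and ions through channels and transporters, and is sealed by tight junctions. The plexus of the lateral ventricle lies against the hippocampus and is not part of it, and these genes are low in most neurons and glia. Enpp2 is also made by oligodendrocytes, and Kl is also found in neurons.

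All 10 genes differed many-fold between mice of the same group, and in both groups. In every one of the 10, BCAS 1 was the highest library, Sham 2 and BCAS 3 came next in either order, then Sham 1, and Sham 3 and BCAS 2 were the lowest pair. Summed over the 10 genes, the level was 1560 CPM in Sham 1, 5860 in Sham 2 and 234 in Sham 3. It was 8725 CPM in BCAS 1, 213 in BCAS 2 and 5001 in BCAS 3. The highest library of the 6 thus held 41.0 times the level of the lowest, and both belong to the BCAS group. The mean was 2551 ± 2941 CPM in Sham and 4646 ± 4267 CPM in BCAS (SD, n = 3), with overlapping groups. In bulk tissue, fewer cells of a type and less RNA per cell cannot be told apart, so the sum is a level of RNA and not a number of cells. Whether the differences arose when the tissue was dissected was not tested.

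**Figure D1:**
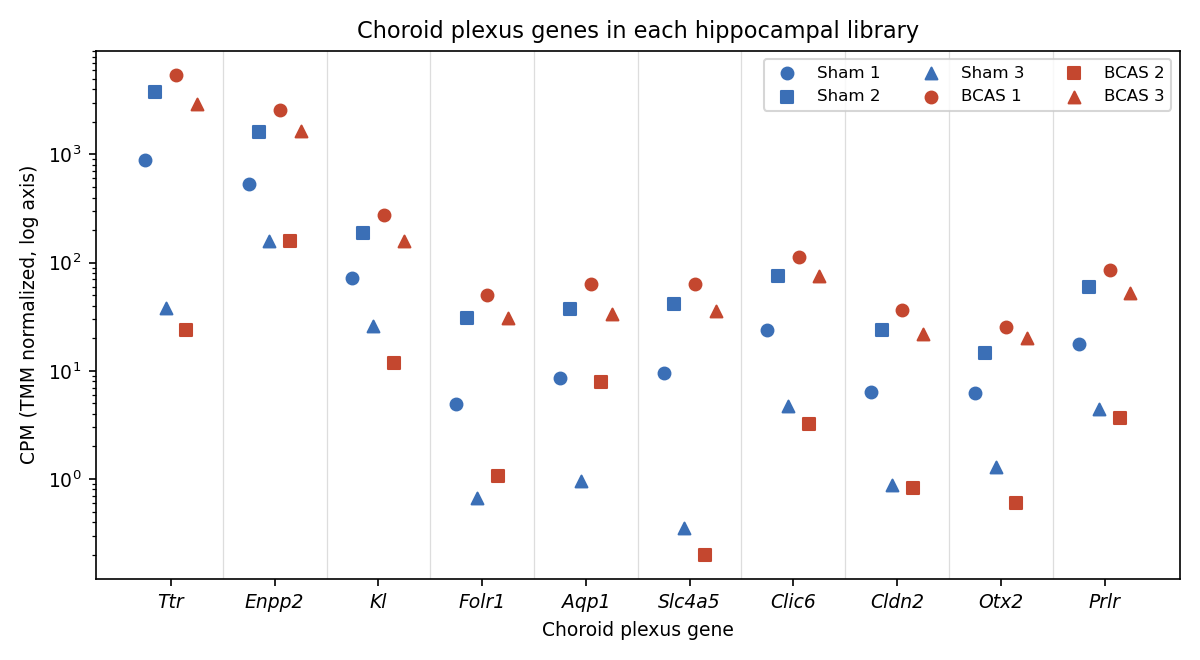
Level of each of the 10 genes in the 6 libraries, in CPM on a log axis, with 1 point per mouse, blue for Sham and red for BCAS. Sham 3 and BCAS 2 lie lowest for every gene and BCAS 1 highest, with Ttr spanning 23.7 to 5461 CPM.

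Of the secreted products, Ttr encodes transthyretin, the thyroid hormone and retinol carrier that the plexus releases into the fluid (ENSMUSG00000061808.4, chr18:20665280-20674321 on the plus strand, mm10 as for all positions of genes). Its level was 882 CPM in Sham 1, 3773 in Sham 2 and 38.0 in Sham 3, against 5461 in BCAS 1, 23.7 in BCAS 2 and 2930 in BCAS 3. These levels rest on 714 counts in BCAS 2 and 177411 in BCAS 1. The highest and lowest libraries differed 231-fold, and no order of Sham and BCAS was visible.

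Enpp2 encodes autotaxin, the secreted enzyme that makes lysophosphatidic acid (ENSMUSG00000022425.16, chr15:54838901-54952892, minus strand). It was measured at 528, 1616 and 157 CPM in Sham 1 to 3 and at 2552, 160 and 1641 CPM in BCAS 1 to 3. Its 16.3-fold range was the narrowest of the 10, with Sham 3 and BCAS 2 nearly level. Kl encodes Klotho, the co-receptor for the hormone FGF23 whose outer part is also shed (ENSMUSG00000058488.7, chr5:150952607-150993817, plus strand). Kl gave 72.0, 189 and 26.1 CPM in Sham 1 to 3 and 276, 11.8 and 159 CPM in BCAS 1 to 3, a 23.3-fold range.

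Of the uptake and hormone receptors, Folr1 encodes the folate receptor that carries folate into the fluid (ENSMUSG00000001827.12, chr7:101858331-101870788, minus strand). Folr1 stood at 4.90, 30.5 and 0.67 CPM in Sham 1 to 3 and at 50.1, 1.06 and 30.9 CPM in BCAS 1 to 3. Prlr encodes the receptor for the pituitary hormone prolactin (ENSMUSG00000005268.20, chr15:10177238-10349180, plus strand). Prlr stood at 17.8, 59.4 and 4.46 CPM in Sham 1 to 3 and at 85.9, 3.68 and 52.3 CPM in BCAS 1 to 3. The range was 74.7-fold for Folr1 and 23.3-fold for Prlr, and the lowest library was Sham 3 for Folr1 and BCAS 2 for Prlr.

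Water, ion and junction genes gave the same split of the libraries. Aqp1, the water channel of the apical membrane (ENSMUSG00000004655.5, chr6:55336432-55348555, plus strand), was at 8.59, 37.5 and 0.96 CPM in Sham 1 to 3 and at 63.1, 7.89 and 33.8 CPM in BCAS 1 to 3. BCAS 2 was the second lowest library for Aqp1, yet it lay close to Sham 1 and well above Sham 3. Slc4a5, a sodium bicarbonate cotransporter (ENSMUSG00000068323.12, chr6:83219828-83304945, plus strand), was at 9.50, 41.3 and 0.35 CPM in Sham 1 to 3 and at 63.3, 0.20 and 35.9 CPM in BCAS 1 to 3. Its range of 318-fold was the widest of the 10. The lowest value rests on 6 counts in BCAS 2, with an exact Poisson interval of 2.20 to 13.1 counts that covers counting error only. Mates of a pair were counted separately, so the interval may be too narrow.

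Clic6, a member of the chloride intracellular channel family (ENSMUSG00000022949.9, chr16:92485736-92541243, plus strand), was at 23.8, 75.2 and 4.72 CPM in Sham 1 to 3 and at 112, 3.22 and 75.3 CPM in BCAS 1 to 3. Cldn2, a claudin that makes tight junctions permeable to cations and water (ENSMUSG00000047230.6, chrX:139800828-139811386, plus strand), was at 6.40, 24.0 and 0.87 CPM in Sham 1 to 3 and at 36.7, 0.83 and 22.1 CPM in BCAS 1 to 3. Clic6 varied 34.9-fold and Cldn2 44.2-fold over the 6 libraries, and Sham 3 and BCAS 2 were nearly level for Cldn2.

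Otx2 is the homeobox transcription factor needed to form and keep the choroid plexus (ENSMUSG00000021848.16, chr14:48657677-48673819, minus strand). Otx2 gave 6.23, 14.7 and 1.28 CPM in Sham 1 to 3 and 25.5, 0.60 and 20.1 CPM in BCAS 1 to 3. The regulator thus varied 42.8-fold, in the same split of libraries as the secreted and transport genes. Reads were counted without regard to strand, and 3.98% of the exon bases of Otx2, 5.97% of those of Enpp2 and 1.32% of those of Prlr lie in exons of other annotated genes. The other 7 members share no exon bases with another gene.

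Promoter windows from RefSeq (GRCm38.p6, 250 bases before to 50 after a start site) were read for 6 of the 10 members, 11 in all. Any member window on the chromosome of Ttr was left out, so Ttr was not among them. Each of the 11 was searched for TAATCC on both strands (GGATTA on the other strand), the core letters that OTX2 and related homeodomains recognise. One window of Otx2 held it, at chr14:48665060-48665359 on the minus strand, with the first base at -211 from the start site. That window and the window of Slc4a5, the gene with the widest range, at chr6:83237125-83237424 on the plus strand, are shown 5′ to 3′ because their genes moved together, with the motif in capitals.
Otx2: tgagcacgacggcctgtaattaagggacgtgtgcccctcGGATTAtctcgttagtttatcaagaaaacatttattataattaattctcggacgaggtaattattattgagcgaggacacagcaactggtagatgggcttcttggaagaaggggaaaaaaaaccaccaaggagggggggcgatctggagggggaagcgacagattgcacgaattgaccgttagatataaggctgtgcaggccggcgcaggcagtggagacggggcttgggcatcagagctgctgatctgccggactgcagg
Slc4a5: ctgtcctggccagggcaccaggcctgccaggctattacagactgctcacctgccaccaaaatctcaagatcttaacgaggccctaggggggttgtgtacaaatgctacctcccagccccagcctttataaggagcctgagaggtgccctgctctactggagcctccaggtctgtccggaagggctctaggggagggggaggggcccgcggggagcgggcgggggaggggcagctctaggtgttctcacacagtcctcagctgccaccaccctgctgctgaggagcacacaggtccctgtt
The motif was in 1 of 11 member windows (9.09%), so in 1 of 6 members, and in 7.06% of all 32851 windows of this length. Otx2 and Prlr each have several of the 11 windows, and some of Otx2 overlap, so the 11 are not separate observations. The 32851 windows include the chromosome of Ttr. A match describes letters, and its absence from a window says only that these letters are not there.

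Compared per length of exon, as CPM per kilobase, Ttr led in 5 of 6 libraries. In BCAS 1 the order was Ttr at 4604, Enpp2 at 442, Kl at 29.6, Clic6 at 28.7, Aqp1 at 24.0, Folr1 at 21.8, Cldn2 at 11.0, Slc4a5 at 10.9, Otx2 at 6.04 and Prlr at 5.60. Several neighbours in this order lie closer together than the libraries of a group do for any of these genes. In BCAS 2 Enpp2, at 27.7, lay above Ttr, at 20.0, and in Sham 3 they were at 27.2 and 32.1.

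The members did not all keep their proportion to Ttr. Slc4a5 did most closely, with 10.8, 11.0 and 9.20 counts per 1000 Ttr counts in Sham 1 to 3 and 11.6, 8.40 and 12.3 in BCAS 1 to 3. That is a 1.46-fold range, while Ttr itself varied 231-fold and Slc4a5 318-fold. For the other 8 the ratio was higher in Sham 3 and BCAS 2 than in any of the other libraries. The ranges ran from 5.50-fold for Cldn2 to 34.2-fold for Aqp1. All 8 ratios share Ttr as denominator, which was lowest in these libraries, so they are not 8 separate observations. Aqp1 gave 9.73, 9.94 and 25.3 counts per 1000 Ttr counts in Sham 1 to 3 and 11.6, 333 and 11.5 in BCAS 1 to 3. Enpp2 gave 599, 428 and 4127 in Sham 1 to 3 and 467, 6758 and 560 in BCAS 1 to 3. Among the 4 libraries other than Sham 3 and BCAS 2 the ratio varied 1.14-fold for Slc4a5, 1.19-fold for Aqp1 and 1.40-fold for Enpp2. In the lowest pair, these 8 genes were thus not as far below the other libraries as Ttr was, and which cells supplied that RNA was not tested.

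**Figure D2:**
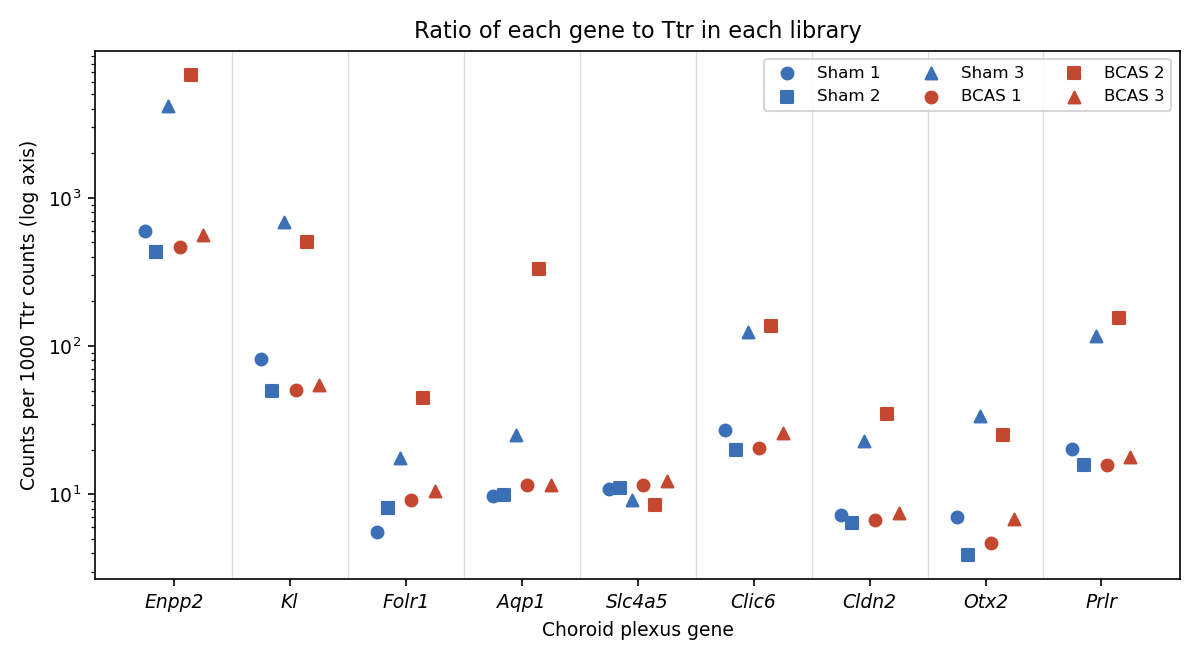
Counts of each other member per 1000 Ttr counts in the 6 libraries, on a log axis, with 1 point per mouse. Slc4a5 stays between 8.40 and 12.3, while the 8 others lie highest in Sham 3 and BCAS 2.

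Because Ttr and Enpp2 supply most of the summed level, the sum was also taken without them. Without Ttr the libraries still differed 17.2-fold and without Enpp2 117-fold. The other 8 genes summed to 149, 472 and 39.4 CPM in Sham 1 to 3 and to 712, 29.3 and 430 CPM in BCAS 1 to 3, a 24.3-fold range. The split of the libraries was thus also present without the pair of most abundant genes.

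Between the groups, none of the 10 genes was a DEG, which required a log2 fold change beyond 1 in either direction together with an adjusted P below 0.05 (edgeR's quasi-likelihood test, Benjamini-Hochberg adjustment over all tested genes). Of all tested genes 9.46% were DEGs, 8.47% higher and 0.999% lower in BCAS. None had an adjusted P under 0.05, against 31.3% of all tested genes (18.0% higher, 13.2% lower), and none had an unadjusted P under 0.05, against 42.4%. DESeq2 and limma-voom also called 0 of 10. The groups overlapped in all 10 genes, whereas 48.0% of tested genes had no overlap (25.3% higher, 22.7% lower in BCAS).

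Fitted values were above 0 for all 10, with a median log2 fold change of 0.93 against 0.018 over all tested genes. The 10 genes come from the same libraries and share the highest library and the lowest pair, so 10 positive values are not 10 separate observations. For Ttr the log2 fold change of BCAS over Sham was 0.84 (SE 1.54, adjusted P = 0.717), with means of 1564 ± 1958 CPM in Sham and 2805 ± 2721 in BCAS. Its 95% interval, -2.65 to 4.33, runs from a fold of 0.160 to a fold of 20.1 and bounds the change only loosely. The largest value was 1.19 for Folr1 (SE 1.22, adjusted P = 0.500) and the smallest 0.64 for Kl (SE 0.92, adjusted P = 0.637). Aqp1, at 1.16 (SE 1.00), had the lowest adjusted P of the 10, at 0.417.

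The other 6 lay between these. Otx2 was at 1.06 (SE 1.02), Slc4a5 at 0.96 (SE 1.37) and Cldn2 at 0.93 (SE 1.13). Enpp2 was at 0.92 (SE 0.94), Clic6 at 0.88 (SE 1.06) and Prlr at 0.80 (SE 0.99). Each value was smaller than, or close to, its own standard error. One mouse set the direction for part of the list, since without BCAS 1 the log2 fold change was -0.085 for Ttr and -0.16 for Kl. Without Sham 2 it was 2.61 for Ttr, and no member reached an adjusted P under 0.05 with any single library left out. Without Sham 3 and BCAS 2 together, an alternative chosen after seeing the data, Ttr was at 0.83 (adjusted P = 0.376) and again 0 of 10 were called.

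**Figure D3:**
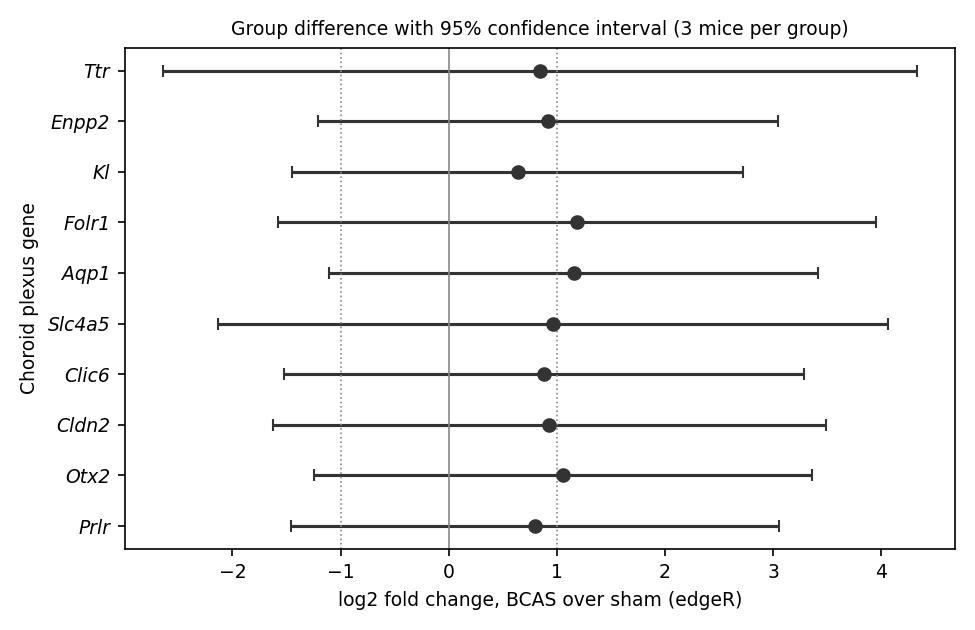
Log2 fold change of BCAS over Sham for each of the 10 genes from edgeR, with 95% intervals as bars, dotted lines at -1 and 1, and 3 mice per group. Every interval includes 0, and the values lie between 0.64 and 1.19.

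The spread between mice of a group set these genes apart from most of the transcriptome. The within-group SD of log2 CPM was 1.93 for Enpp2, 3.87 for Ttr and 3.91 for Slc4a5, with a median of 2.43 over the 10 and 0.18 over all tested genes. Slc4a5 had the largest SD of the 18617 genes and Ttr the second largest, and all 10 were among the 47 largest. The gene-wise biological coefficient of variation ran from 0.742 to 1.17 for the members, against a median of 0.141. The standard errors of the members were 0.92 to 1.54 on the log2 scale, against a median of 0.15 for all tested genes.

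Sham 3 and BCAS 2 were the lowest pair in 5.94% of the other tested genes (1106 of 18607). A within-group SD above 1 was found in 341 of the other genes, and 118 of these also had that lowest pair, 0.634% of the 18607. The exact order of Ttr over the 6 libraries was found in 5 of the 10 members, Ttr included, and in 0.29% of the other genes.

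**Figure D4:**
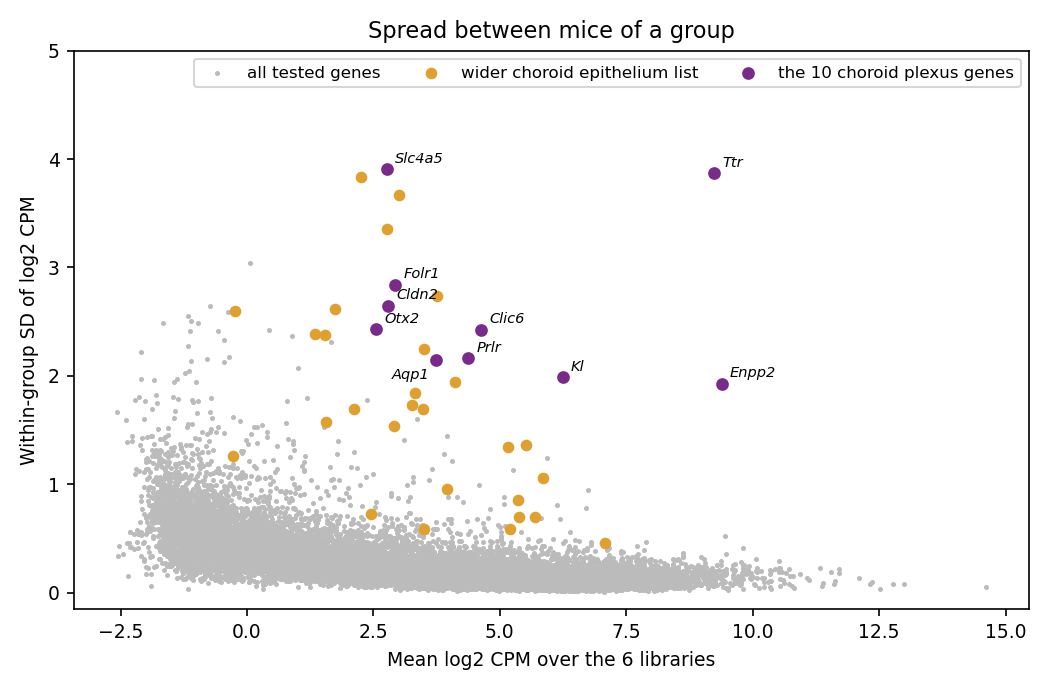
Within-group SD of log2 CPM against mean log2 CPM for all 18617 tested genes in grey, the wider choroid epithelium list in orange and the 10 genes in purple. The 10 genes lie between 1.93 and 3.91, above nearly all genes of like level.

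A wider list of 28 other genes of choroid plexus epithelium was read in the same way. It was chosen by known expression, with earlier results of these data known, so its likeness to the members is not an independent check. All 28 passed the filter, and 25 had Sham 3 and BCAS 2 as the lowest pair, with Slc4a2, Slc13a4 and Cldn1 as the exceptions. All 28 log2 fold changes were above 0, with a median of 0.89. Of the 28, 1 gene was a DEG, higher in BCAS, against 8.47% of all tested genes. Without BCAS 1, 4 of the 28 were below 0, and 1 was below 0 with limma-voom, without Sham 1 or without Sham 3. The list summed to 477, 1003 and 276 CPM in Sham 1 to 3 and to 1542, 340 and 1095 CPM in BCAS 1 to 3. The summed level repeated the split seen in the members over a 5.59-fold range.

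The most abundant of the list were transporters, enzymes and a collagen that other brain cells also express. Slc12a2, the sodium, potassium and chloride cotransporter of the apical membrane, was at 114, 145 and 81.5 CPM in Sham 1 to 3 and 199, 113 and 210 CPM in BCAS 1 to 3. Car12, a carbonic anhydrase, was at 54.5, 92.3 and 35.5 CPM in Sham 1 to 3 and 132, 21.6 and 71.2 CPM in BCAS 1 to 3. Ace, which converts angiotensin, ranged 8.75-fold over the libraries, and Col9a3, a collagen chain, 12.3-fold. Slc4a2, an anion exchanger, ranged 3.78-fold and Slc31a1, a copper importer, 3.60-fold. None of these 6 had an adjusted P under 0.05 by edgeR. With DESeq2 the lowest adjusted P among the 28 genes of the list was 0.0283, and none of the 28 was a DEG. That value is not of Slc13a4, and the gene that gave it is not reported here.

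Slc13a4, a sodium sulfate cotransporter also found in the meninges, was the 1 DEG of the list, with 23.6, 35.0 and 21.7 CPM in Sham 1 to 3 and 77.3, 29.2 and 62.7 CPM in BCAS 1 to 3. Its log2 fold change was 1.08 (SE 0.32, adjusted P = 0.0330, edgeR), yet BCAS 2 lay below Sham 2, so the groups overlapped. The call was lost with DESeq2 (adjusted P = 0.0600), with limma-voom (0.0555), with glmTreat and without Sham 1, Sham 3, BCAS 1 or BCAS 3.

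Genes with the pattern most like that of Ttr were found by the root mean square difference of centred log2 CPM over the 6 libraries, among 15630 genes with a mean of at least 1 CPM. The nearest was the member Slc4a5, at 0.0674, against a median of 3.19 for all genes compared. Outside the members the nearest 8 were Mfrp at 0.227, Tmem72 at 0.263, Kcne2 at 0.467, Tmprss11a at 0.777, F5 at 0.976, Kcnj13 at 1.13, Col17a1 at 1.14 and Wfdc2 at 1.20. Of these 8, 5 belong to the wider list, Mfrp, Tmem72, Kcne2, F5 and Kcnj13. That list was chosen with earlier results of these data known. Mfrp, a membrane frizzled-related protein, gave 185, 941 and 7 counts in Sham 1 to 3 and 1415, 5 and 877 counts in BCAS 1 to 3. Tmprss11a and Col17a1 had 0 counts in BCAS 2, which allows up to 3 counts or 0.0995 CPM there.

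Markers of other tissue that a dissected hippocampus could hold were read beside the members, library by library. The ependymal list, for the ciliated cells that line the ventricle, summed to 49.5, 58.6 and 40.8 CPM in Sham 1 to 3 and to 102, 50.9 and 94.7 CPM in BCAS 1 to 3. It had BCAS 1 as the highest library, as in the members, but Sham 3 and Sham 1 as the lowest, with BCAS 2 just above Sham 1, over a 2.49-fold range. Sham 3 and BCAS 2 were the lowest pair in 4 of its 11 tested genes, against 5.94% of the tested genes outside the members. Of its 11 tested genes none was a DEG and Foxj1 and Rarres2 rose with an adjusted P under 0.05. That share is near the 18.0% of all tested genes that rose with an adjusted P under 0.05. Foxj1, the regulator of motile cilia, had a log2 fold change of 0.97 (adjusted P = 0.0387, edgeR), and it lost the call with DESeq2 (0.0708), with limma-voom (0.0560), with glmTreat and without Sham 1, Sham 3, BCAS 1 or BCAS 3. Cfap54 and Ccdc153, also of cilia, had log2 fold changes of 0.61 and 0.072 and did not pass.

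The meningeal fibroblast list differed from the members in its order. It summed to 197, 143 and 279 CPM in Sham 1 to 3 and to 321, 477 and 525 CPM in BCAS 1 to 3, so that the groups did not overlap and BCAS 2 and Sham 3 were not the lowest. Of its 12 genes 7 were DEGs, all higher in BCAS, against 8.47% of all tested genes. Among them were the collagen genes Col1a2 at 1.52 and Col1a1 at 2.13 on the log2 scale. Dcn, the proteoglycan decorin, was the most abundant of the list and did not pass, at 0.27.

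The fenestrated vessel and blood list, which holds genes of plexus capillaries and of red cells, summed to 94.7 to 119 CPM in Sham and to 122 to 188 CPM in BCAS, with BCAS 2 highest. None of its 7 genes passed by edgeR. Its most abundant genes, the globins Hbb-bs and Hba-a1, were highest in BCAS 2, at 95.2 and 58.2 CPM. The globins have near-identical copies and reads with several alignments were not counted, so their levels are uncertain. Plvap, the protein of the diaphragms of fenestrated capillaries, gave 11.3, 14.3 and 8.80 CPM in Sham 1 to 3 and 15.3, 9.61 and 13.6 CPM in BCAS 1 to 3. Esm1, an endothelial proteoglycan chosen here after its values were seen, gave 17, 71 and 7 counts in Sham 1 to 3 and 62, 14 and 84 counts in BCAS 1 to 3. For Plvap and Esm1, Sham 3 and BCAS 2 were the lowest pair, as in the members.

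Neighbouring brain tissue varied far less than the members. The oligodendrocyte list, which holds the myelin genes Mbp and Mobp, summed to 6820, 6339 and 5569 CPM in Sham 1 to 3 and to 6907, 6241 and 9419 CPM in BCAS 1 to 3, and 0 of 10 genes passed by edgeR. Sham 3 and BCAS 2 were the lowest pair in this sum too, and in 6 of its 10 genes, against 5.94% of the tested genes outside the members. Enpp2, which oligodendrocytes also make, varied 16.3-fold while this list varied 1.69-fold. The thalamus and habenula list summed to 169, 158 and 153 CPM in Sham 1 to 3 and to 174, 146 and 237 CPM in BCAS 1 to 3. Sham 3 and BCAS 2 were again the lowest pair in the sum, but in only 1 of its 11 tested genes. Lef1 was its 1 DEG, higher in BCAS, against 8.47% of all tested genes. The log2 fold change of Lef1 was 1.03 (adjusted P = 0.00247, edgeR), and it was under the limit of 1, at 0.95 to 0.99, without Sham 1, Sham 3, BCAS 2 or BCAS 3. Of its most abundant genes, the kinase gene Prkcd rose by 0.91 on the log2 scale (adjusted P = 0.0265, edgeR), a call lost with glmTreat and without Sham 2 or Sham 3, and its value was 0.52 without BCAS 3, while Slc17a6 and Calb2 were at -0.13 and -0.15 and did not pass.

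Markers of hippocampal neurons were detected in all 6 libraries. The hippocampal neuron list summed to 1134 to 1243 CPM in Sham and to 491 to 704 CPM in BCAS. Of its 10 genes 5 were DEGs, all lower in BCAS, against 0.999% of all tested genes. Sham 3 and BCAS 2 were the lowest pair in 1 of the 10, against 5.94% of the tested genes outside the members. Neurod6, a transcription factor of pyramidal neurons, fell by 1.56 (adjusted P = 0.00137, edgeR) and Nr3c2, the mineralocorticoid receptor, fell by 1.16 (adjusted P = 0.00250) on the log2 scale, or by 0.99 and so under the DEG limit without BCAS 3, while Wfs1 was at -0.30 and did not pass. The microglia list, which holds Csf1r and C1qa, was 310 to 323 CPM in Sham and 1885 to 3043 CPM in BCAS. Its DEGs were 8 of 8 genes, all higher in BCAS, against 8.47% of all tested genes. The astrocyte list was 4771 to 5071 CPM in Sham and 9999 to 10497 CPM in BCAS. Gfap and Aqp4 were DEGs among its 8 genes, both higher, against the same 8.47%. Of its 3 most abundant genes Slc1a2 was at 0.41, Gfap at 3.29 and Aldoc at 0.26. Within BCAS the microglia list differed 1.61-fold and the astrocyte list 1.05-fold between mice, while the 10 choroid plexus genes differed 41.0-fold.

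**Figure D5:**
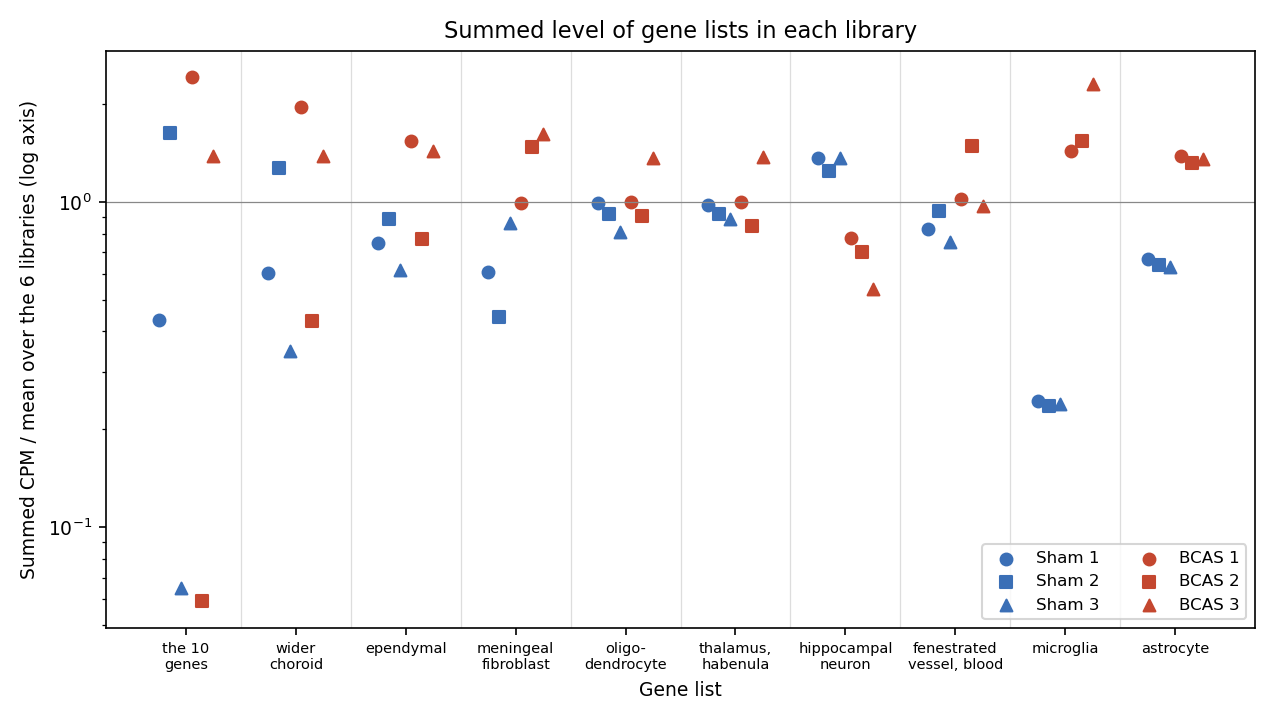
Summed CPM of each gene list in each library, divided by the mean of the 6 libraries, on a log axis, with 1 point per mouse. The 10 genes and the wider choroid list both have Sham 3 and BCAS 2 as the lowest libraries, by a wide gap in the 10 genes and a smaller one in the wider list. The oligodendrocyte list and the thalamus and habenula list have the same lowest pair over a narrow range, while the neuron, microglia and astrocyte lists separate Sham from BCAS.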

How the data were processed

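RNA-seq was done on the right hippocampus of 3 Sham and 3 BCAS mice, grouped by their labels. After trimming, the authors aligned the reads with HISAT2 (build mm10) and ran featureCounts, and the deposited values are the raw counts of reads per gene. Per the file headers, mates of a pair were counted separately, strand was ignored and reads with several alignments were not counted. The headers name featureCounts 2.0.3 and GENCODE M20, and the methods name version 1.6.3 and RefSeq genes. Symbols were matched for 54723 of 54752 identifiers. BCAS mice are numbered by their labels.

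Genes were kept by filterByExpr, scaled by TMM (factors 0.964 to 1.05) and tested with edgeR 4.0.16 (limma 3.58.1, DESeq2 1.42.0, R 4.3.3), without a replicate block. Standard errors were derived from the fold change and the F statistic. Log2 CPM used a prior count of 2, and 3 counts, taken as the limit of detection, were 0.0875 to 0.0995 CPM. Such limits and intervals cover counting error only and treat mates of a pair as separate counts. The edgeR, DESeq2 and limma-voom fits were tested on simulated data in which every gene had the common biological coefficient of variation, 0.161. The members had 0.742 to 1.17, so the simulation does not cover genes as variable as these. The other steps were not simulated.

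The members and all lists were chosen with earlier results of these data known. Named genes are the 10 members, the 6 most abundant and each called gene of the wider choroid epithelium list, the 3 most abundant of each other list (ependymal, meningeal fibroblast, oligodendrocyte, thalamus and habenula, hippocampal neuron, fenestrated vessel and blood, microglia, astrocyte), and the 8 genes outside the members nearest to Ttr. Some genes that this rule names are not reported here. Other genes named were chosen after their values were seen. Alternatives were DESeq2, limma-voom, RLE scaling, library totals, no low-count filter, a mean of 10 counts, glmTreat, counts halved because mates were counted separately, the replicate number as a block, and leaving out each library.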

Additional observations from a re-analysis of the deposited data

How the results depend on the processing

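None of the 10 genes was called under any alternative, whether by the DEG thresholds or by an adjusted P under 0.05. The log2 fold changes of Ttr and Kl turned to -0.085 (adjusted P = 0.979) and -0.16 (adjusted P = 0.926) without BCAS 1, and the other 158 values of single genes kept their direction and stayed uncalled. With 1 library left out, Ttr ran from -0.085 to 2.61 and Kl from -0.16 to 1.601, lowest without BCAS 1 and highest without Sham 2, with these same libraries at the ends for all 10 genes. For the wider choroid epithelium list, the count of 1 DEG was 0 with DESeq2, limma-voom and glmTreat, and 0 to 4 with 1 library left out. It was 0 without Sham 1, Sham 3, BCAS 1 or BCAS 3, 3 without Sham 2 and 4 without BCAS 2.

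The replicate numbers did not pair the mice, with residual correlations of 0.036, -0.314 and -0.158 between libraries of the same number. With the replicate block Ttr was at 2.28 (adjusted P = 0.610), 0 of the 10 genes were called and the wider list had 0 DEGs. The block also ended the calls of Slc13a4 (adjusted P = 0.0954), Foxj1, Prkcd and Slc1a2, and glmTreat those of Foxj1, Prkcd, Slc1a2, Lef1, Neurod6 and Nr3c2. The call of Slc1a2 was also lost without Sham 1, Sham 2, Sham 3 or BCAS 1. The lowest count of a member in a library was 714 for Ttr and 6 for Slc4a5. The causes of these shifts were not tested.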
